A study of Mus musculus with 6 samples.

Results

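The genes described here were 10 genes that the visceral endoderm is known for, taken from the 23353 genes listed in the count table by matching their symbols: Afp, Ttr, Rbp4, Trf, Apoa1, Apob, Apoe, Cubn, Amn and Dab2. All 10 were listed. RNA-seq was performed on day 4 embryoid bodies (EBs), floating aggregates in which mouse embryonic stem cells (mESCs) differentiate. Wildtype EBs came from the parental W9.5 mESC line and EVX1-Δfs EBs from clone 14, a single CRISPR-edited line derived from it with small frameshift deletions in both alleles of Evx1, in the homeodomain region of exon 2. Both genotypes were differentiated in serum-containing medium without LIF, and each was represented by 3 libraries, one from each of 3 differentiations in which both lines were set up together. Because 1 clone was sequenced, differences owed to the edit and differences owed to that clone cannot be told apart.

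The visceral endoderm is the extraembryonic epithelium that surrounds the epiblast, and it acts as a nutrient organ before the placenta, liver and kidney function. It secretes serum proteins such as alpha-fetoprotein, transthyretin, transferrin and apolipoproteins, and it takes up maternal proteins through a large apical receptor complex of cubilin, amnionless and megalin. The adaptor DAB2 links these receptors to clathrin-coated pits. Retinol travels bound to RBP4, which in blood is held by transthyretin, and enters cells through the receptor STRA6.

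The sequences below give the target site of the edit and promoter windows of genes at low and high expression levels among the 10 genes. The guide used for the edit matched NCBIM37 (mm9) at chr6:52265847-52265866 on the plus strand, in coding sequence of exon 2 of the 3 exons of Evx1. It is shown 5′ to 3′ with the adjoining PAM in capitals.
Evx1 guide: ccagatgcgccgataccgcaCGG

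RefSeq promoter windows (GRCm38.p6, 250 bases before the annotated start) were used for 8 of the 10 genes, and those of Ttr and Trf were not used. Those of Afp (chr5:90490464-90490713, plus strand) and Apoa1 (chr9:46228380-46228629, plus strand), secreted genes with almost no reads, are shown. Beside them is that of Apoe (chr7:19699189-19699438, minus strand), the abundant gene of the group. All are written 5′ to 3′ on the strand of the gene, with motif matches in capitals.
Afp: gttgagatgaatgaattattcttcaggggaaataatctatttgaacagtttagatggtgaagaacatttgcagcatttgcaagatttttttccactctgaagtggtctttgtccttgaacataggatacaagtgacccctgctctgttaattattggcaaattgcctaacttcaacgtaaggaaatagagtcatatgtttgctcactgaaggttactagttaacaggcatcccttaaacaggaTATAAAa
Apoa1: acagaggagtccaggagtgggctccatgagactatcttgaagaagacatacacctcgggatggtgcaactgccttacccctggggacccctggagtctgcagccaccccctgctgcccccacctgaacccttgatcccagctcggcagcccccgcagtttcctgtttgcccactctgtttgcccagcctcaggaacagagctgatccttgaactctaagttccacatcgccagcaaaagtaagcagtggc
Apoe: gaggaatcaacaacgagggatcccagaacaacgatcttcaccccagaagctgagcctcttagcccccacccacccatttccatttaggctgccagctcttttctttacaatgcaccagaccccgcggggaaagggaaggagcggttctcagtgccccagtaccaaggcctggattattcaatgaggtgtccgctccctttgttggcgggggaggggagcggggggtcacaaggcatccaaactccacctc

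Motifs were searched by their letters on both strands, which were TATAAA for the TATA box, CAAAGTCCA for HNF4, the core AGATAA for the GATA factors and TGTTTAC for FOXA. No motif lies within another. Across 27025 promoter windows of the same length these were held by 13.0%, 0.377%, 10.2% and 3.06%, in that order. The Afp window held TATAAA at 7 to 2 bases before the start. Among the windows not shown, that of Apob held TATAAA at 60 to 55 bases and that of Rbp4 held TGTTTAC on the opposite strand at 241 to 235 bases before the start. None of these letters was found in the Apoa1, Apoe, Amn, Cubn or Dab2 windows. The Afp window held 1 CpG, the Apoa1 window 4 and the Apoe window 8, against a median of 6 across all windows, and 8.27%, 38.1% and 56.6% of windows held fewer. These matches describe the printed letters and were not tested for use in EBs.

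Between 7597879 and 9914471 reads per library were assigned to genes, 27739771 in all wildtype libraries and 25727686 in all EVX1-Δfs libraries. Values are normalized counts, which are reads divided by 1 size factor per library. Evx1 itself was at similar levels in both genotypes (2311 ± 119 and 2294 ± 258, SD, n = 3), and a read count does not reveal the edit. In the limma fit across 13136 genes, 660 genes (5.02%) passed an adjusted p under 0.05, of which 273 (2.08%) were higher and 387 (2.95%) lower in EVX1-Δfs EBs.

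Of the 10 genes, Apoe was the abundant gene (4626 to 6399 normalized counts per library), 4 genes were low but measurable (Dab2, Rbp4, Trf and Cubn, 2.65 to 61.9), and 5 were too low for the test (Apob, Amn, Apoa1, Ttr and Afp). A gene was tested where 3 or more libraries reached 10 normalized counts, and 5 of the 10 genes did. Of these, 0 were called higher and 0 lower in EVX1-Δfs EBs, against 5.02% of all genes tested. At an unadjusted p under 0.05 in limma there were 2 (Apoe and Rbp4), against 23.1% of all genes tested, and DESeq2, edgeR and each of the other settings also called 0 of those they gave an adjusted p. The tested genes had a median log2 fold change of -0.04, against 0.00 for all genes tested. Low levels of the genes that mark a cell type in whole EBs cannot tell fewer cells of that type apart from less RNA per cell.

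**Figure D1:**
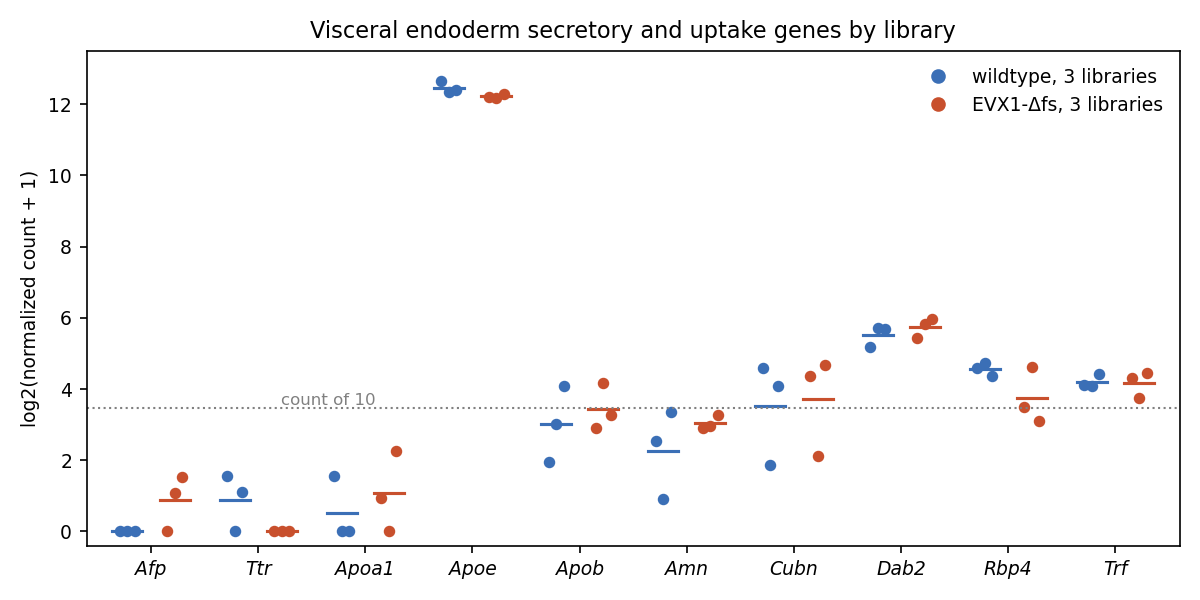
Normalized counts of the 10 genes on a log2(normalized count + 1) axis, with 1 point for each of the 3 wildtype (blue) and 3 EVX1-Δfs (orange) libraries, bars at the group means of these log2 values and a dotted line at a count of 10. Apoe lies far above the rest, at 4626 to 6399 normalized counts, and Afp, Ttr and Apoa1 lie at or near 0 in both genotypes.

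Expression was first compared among the genes per kilobase of exon, as the mean of the 6 libraries. Apoe was at 2630.2 normalized counts per kilobase, and 99.2% of genes with a read and an annotated length were lower. Rbp4 followed at 14.1 per kilobase, with 39.4% of these genes lower. Only between these neighbours in the order did the ranges over the 6 libraries not overlap. Dab2 was at 6.73, Trf at 5.28, Amn at 3.63 and Cubn at 1.26 normalized counts per kilobase. Apoa1 was at 0.898, Apob at 0.694, Ttr at 0.418 and Afp at 0.242. Each of these neighbours had overlapping ranges over the libraries. Genes farther apart in the order could still be told apart, since the lowest library of Rbp4 (5.88) was above the highest of Amn (5.44) and of every gene after it. Likewise, the lowest libraries of Dab2 (4.82) and Trf (3.75) were above the highest of Apoa1 (3.08) and of Cubn, Apob, Ttr and Afp. Apoe also made up between 97.3% and 98.3% of the summed normalized counts of the 10 genes in every library. Without it, the sum of the other 9 genes was 109, 104 and 133 in wildtype libraries and 105, 120 and 138 in EVX1-Δfs libraries, and the groups overlapped. The name of the group therefore describes what the genes are known for, and in these EBs its level was that of Apoe.

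**Figure D2:**
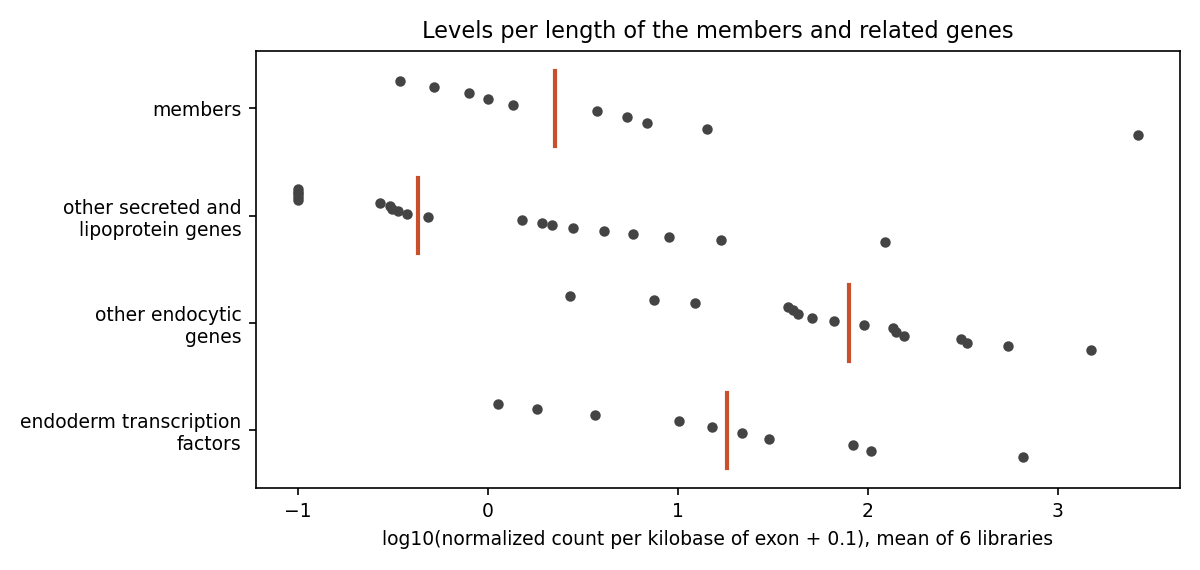
Mean normalized counts per kilobase of exon over the 6 libraries, on a log10(value + 0.1) axis, for the 10 genes and for 3 lists of related genes (1 point per gene, spread vertically only to separate points, orange line at the list median). Apoe stands alone at the right of the upper row at 2630.2 per kilobase, and most other genes of the row lie below 10.

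Secreted transport proteins were considered first. Afp (chromosome 5, 90919740 to 90937933, NCBIM37) encodes alpha-fetoprotein, the major serum protein of the yolk sac and a classical marker of differentiated visceral endoderm. No wildtype library held a read of it, and the EVX1-Δfs libraries were at 0, 1.13 and 1.91 normalized counts in order of replicate number. This was 0 reads against 3, and a count of 0 allows up to 3 among the 27739771 wildtype reads. Afp was thus at the limit of detection in both genotypes.

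Ttr (chromosome 18, 20823751 to 20832825) encodes transthyretin, the carrier of thyroid hormone and of the retinol-RBP4 complex. The wildtype libraries were at 1.91, 0 and 1.15 normalized counts, and all EVX1-Δfs libraries were at 0. The 0 reads of the latter allow up to 3 among 25727686. The opposite directions of Afp and Ttr therefore rested on 3 reads each, and no difference was detectable for either at this depth. In a limma fit over all 18245 genes with any read, in which 2.77% of genes were called, their adjusted p were 0.402 and 0.399. The exons of Ttr share 11 bases with Gm16090 on the opposite strand.

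Rbp4 (chromosome 19, 38191110 to 38199811) encodes the plasma carrier of retinol. It was at 23.0, 25.7 and 19.5 normalized counts in wildtype libraries, and the EVX1-Δfs libraries were at 10.3, 23.7 and 7.62, in order of replicate number. Replicates 1 and 3 of EVX1-Δfs lay below every wildtype library, but replicate 2 lay within the wildtype range, so the groups overlapped. Within same-numbered pairs the log2 differences were -1.09, -0.11 and -1.25. The means were 22.7 ± 3.11 and 13.9 ± 8.61 (SD, n = 3), and the fitted log2 fold change was -0.82 ± 0.39 (SE), at an adjusted p of 0.215 in limma. Rbp4 had the largest difference of the 5 tested genes, 0.568-fold with a 95% confidence interval of 0.324 to 0.998, and did not pass the test. Behind it were 70 wildtype and 40 EVX1-Δfs reads. Without EVX1-Δfs replicate 2 the estimate was -1.26 and without EVX1-Δfs replicate 3 it was -0.50.

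Trf (chromosome 9, 103106331 to 103132774) encodes transferrin, which carries iron. Normalized counts were 16.3, 15.9 and 20.6 in wildtype and 18.7, 12.4 and 21.0 in EVX1-Δfs EBs, and the groups overlapped. The log2 fold change was -0.04 ± 0.35 (SE), at an adjusted p of 0.958 in limma. The 95% confidence interval of the fold, 0.587 to 1.61, leaves room for a sizeable difference in either direction, and the estimate was above 0 without wildtype replicate 3 (0.07) or EVX1-Δfs replicate 2 (0.17). The annotation holds a second gene of this symbol with 2108 shared exon bases on the same strand, so the assignment of its reads is uncertain.

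Apolipoproteins were examined next. Apoa1 (chromosome 9, 46036663 to 46038549) encodes the main protein of high density lipoprotein. It was listed at 1.91, 0 and 0 normalized counts in wildtype and 0.934, 0 and 3.81 in EVX1-Δfs EBs. The reads numbered 2 and 5, a ratio of 2.70 with an exact 95% counting interval of 0.441 to 28.3, so no difference was detectable at this depth.

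Apob (chromosome 12, 7984454 to 8023641) encodes the structural protein of the lipoproteins that the yolk sac exports. It was at 2.87, 7.08 and 16.0 normalized counts in wildtype and 6.54, 16.9 and 8.58 in EVX1-Δfs EBs, and the groups overlapped. The 25 and 31 reads gave a ratio of 1.34 with a counting interval of 0.764 to 2.36, which covers counting error only. Apob was not tested, since 2 libraries reached a count of 10, and its adjusted p in the limma fit over all genes with any read was 0.733. Its transcript is the longest of the group at 13934 annotated exon bases, and it ranked eighth of the 10 genes per kilobase.

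Apoe (chromosome 7, 20281458 to 20284515) encodes a ligand of lipoprotein receptors that many cell types make, embryonic stem cells among them. Wildtype libraries held 6399, 5191 and 5366 normalized counts of it, and EVX1-Δfs libraries 4703, 4626 and 4962. All EVX1-Δfs libraries lay below all wildtype libraries, as was the case for 14.7% of the genes tested. The means were 5652 ± 653 and 4764 ± 176 (SD, n = 3). The log2 fold change was -0.24 ± 0.12 (SE), or 0.846-fold with a 95% confidence interval of 0.716 to 1.00, at an adjusted p of 0.216 in limma. Apoe therefore did not pass the test. The pairs differed by -0.44, -0.17 and -0.11 on the log2 scale, and their shared direction follows from the groups not overlapping. The estimate was -0.09 with GC and length trends removed and -0.15 without wildtype replicate 1.

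The genes of the uptake complex followed. Cubn (chromosome 2, 13197965 to 13413551) encodes cubilin, the large peripheral receptor that binds apolipoprotein A-I, albumin, transferrin and vitamin B12 with intrinsic factor. In order of replicate number, wildtype libraries were at 23.0, 2.65 and 16.0 normalized counts, and EVX1-Δfs libraries at 19.6, 3.38 and 24.8. Replicate 2 was low in both genotypes, and the spread between the replicates was far larger than the difference between genotypes. The log2 fold change was 0.21 ± 0.63 (SE), at an adjusted p of 0.872 in limma, and the pairs differed by -0.22, 0.26 and 0.60. The estimate fell below 0 without wildtype replicate 2 (-0.61) and without replicate 1 or 3 of EVX1-Δfs (-0.10 and -0.27). A term for the replicate number was added to the limma fit after these values were seen. Of 13136 genes, Cubn had the lowest p for it (4.45e-04), with an adjusted p of 0.948, and 0 genes passed that term after adjustment against 495 at an unadjusted p under 0.05. Its exons share 161 bases with Gm13270 on the opposite strand.

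Amn (chromosome 12, 112509322 to 112514637) encodes amnionless, the transmembrane partner that carries cubilin to the cell surface. It was at 4.78, 0.885 and 9.16 normalized counts in wildtype and 6.54, 6.77 and 8.58 in EVX1-Δfs EBs, and the groups overlapped. The ratio of its 22 EVX1-Δfs to 14 wildtype reads was 1.69 with a counting interval of 0.829 to 3.58. No library reached a count of 10, so it was not tested, and the adjusted p in the limma fit over all genes with any read was 0.478. Wildtype replicate 2 held 1 read of Amn and was also low for Cubn, whereas EVX1-Δfs replicate 2 was low for Cubn and not for Amn.

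Dab2 (chromosome 15, 6249788 to 6390712) encodes the endocytic adaptor of the complex. Normalized counts of it were 35.4, 51.3 and 50.4 in wildtype and 42.0, 55.3 and 61.9 in EVX1-Δfs EBs. It was higher in EVX1-Δfs EBs within each of the 3 pairs, by 0.24, 0.10 and 0.29 on the log2 scale, but the groups overlapped. The log2 fold change was 0.21 ± 0.24 (SE), at an adjusted p of 0.642 in limma. The estimate was 0.03 with GC and length trends removed and 0.04 without wildtype replicate 1, and ranged up to 0.37 without EVX1-Δfs replicate 1. A second annotated gene of this symbol shares 1374 exon bases with it on the same strand, so the assignment of its reads is uncertain too.

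**Figure D3:**
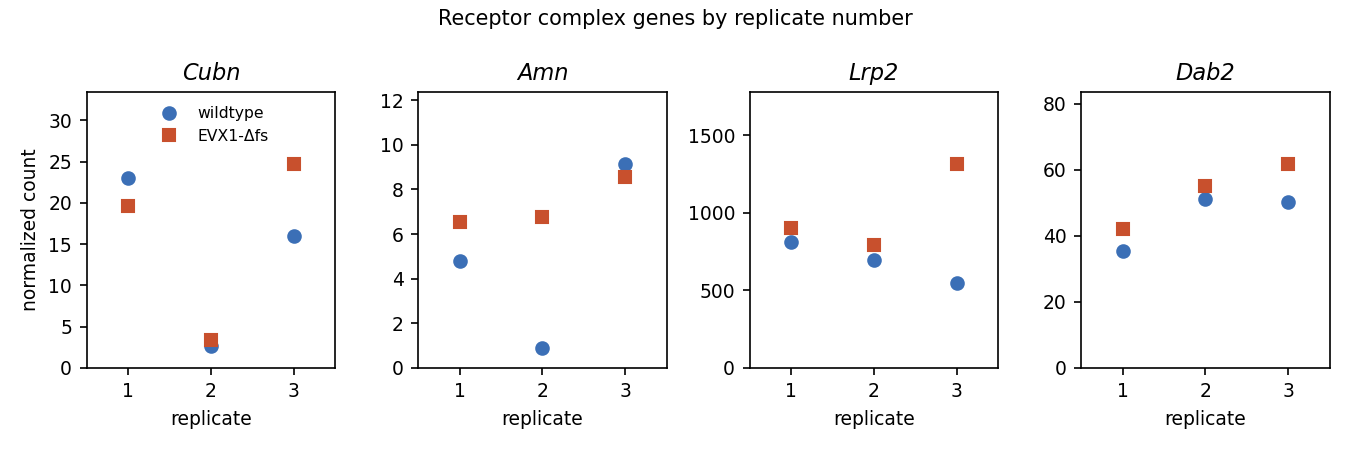
Normalized counts of Cubn, Amn, Lrp2 and Dab2 by replicate number, with circles for wildtype and squares for EVX1-Δfs libraries and a linear axis from 0 in each panel. Cubn is low in replicate 2 of both genotypes, at 2.65 and 3.38, and the Lrp2 values of replicate 3 are the farthest apart, at 544 and 1317.

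Direct partners of these genes in uptake and export were mostly expressed at higher levels. Lrp2, which encodes megalin, the third receptor of the cubilin complex, was at 50.5 normalized counts per kilobase over the 6 libraries, against 1.26 for Cubn and 3.63 for Amn. Wildtype libraries were at 810, 696 and 544 normalized counts and EVX1-Δfs libraries at 902, 791 and 1317. The groups overlapped, since EVX1-Δfs replicate 2 lay below wildtype replicate 1. The log2 fold change was 0.54 ± 0.16 (SE), at an adjusted p of 0.0523 in limma, which narrowly missed the threshold and was under it in 8 of 18 other settings. The replicate 3 libraries carried much of this difference, since the log2 fold change was 0.32 without that of EVX1-Δfs (limma adjusted p of 0.290) and 0.38 without that of wildtype (0.188). Lrp2 was called with all libraries in DESeq2 (0.0363), edgeR (0.0386) and limma-voom (0.0468). In limma it was called with upper-quartile scaling (0.0384) and with pseudocounts of 4 (0.0491) and 16 (0.0447). It also passed in limma when replicate 1 of wildtype (0.0276) or replicate 2 of EVX1-Δfs (0.0382) was left out. With the replicate block it was not called (0.127 in limma and 0.450 in DESeq2). With GC and length trends removed the log2 fold change was 0.42, at a limma adjusted p of 0.140. Lrpap1, the chaperone of this receptor family, was at 1339 ± 89.0 and 1398 ± 168 normalized counts (SD, n = 3), at an adjusted p of 0.804 in limma.

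Tfrc, the transferrin receptor, was at 290, 376 and 382 normalized counts in wildtype and 449, 500 and 449 in EVX1-Δfs EBs. The groups did not overlap, as for 12.2% of genes tested in this direction, and the log2 fold change of 0.42 ± 0.13 (SE) had a limma adjusted p of 0.0647. With GC and length trends removed it was 0.11 (adjusted p of 0.736), and with upper-quartile scaling it was 0.45 and called (adjusted p of 0.0480). Mttp, which loads lipid onto apolipoprotein B, was at 65.6 ± 15.4 and 82.5 ± 12.6 (SD, n = 3), at an adjusted p of 0.354 in limma. Neither partner passed the test.

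Stra6, the receptor for retinol-bound RBP4, was the partner that was called. Wildtype libraries were at 5.74, 9.73 and 4.58 normalized counts and EVX1-Δfs libraries at 22.4, 25.9 and 22.9, from 21 and 71 reads. Every EVX1-Δfs library was above every wildtype library, as for 12.2% of genes tested in this direction. The log2 fold change of 1.74 ± 0.40 (SE) had a limma adjusted p of 0.0163. Stra6 passed the filter on low values through the EVX1-Δfs libraries alone, so it could enter the test only by being higher there. In the limma fit over all genes with any read, where no such filter acts, the adjusted p was 0.0229, and with the replicate block it was 0.0495. DESeq2 gave it no adjusted p, and without any 1 of the EVX1-Δfs libraries it fell below the filter. Rbp4, its ligand, was not called, and its estimate lay on the other side of 0.

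**Figure D4:**
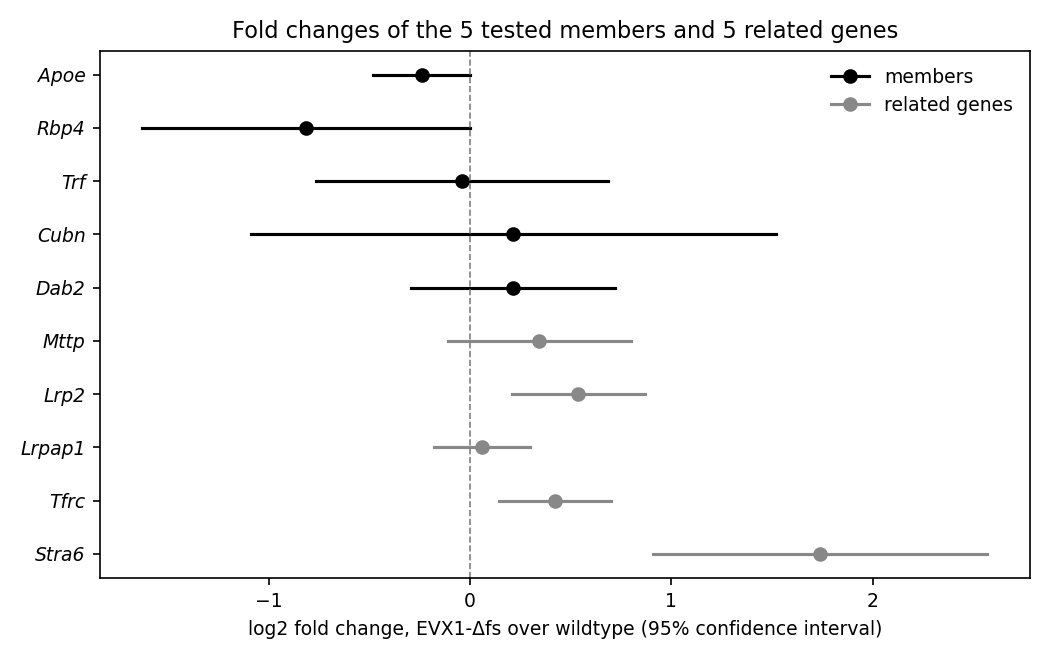
Log2 fold changes of EVX1-Δfs over wildtype EBs on the log2(normalized count + 1) scale, with 95% confidence intervals from limma, for the 5 tested genes of the group (black) and 5 related genes (grey). The intervals of Trf, Cubn and Dab2 cover 0, those of Apoe and Rbp4 end just below it, and Stra6 lies farthest to the right at 1.74.

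Across the list of 16 other endocytic receptors, adaptors and handling genes, all 16 were tested, 1 was called higher (Stra6) and 2 lower, or 18.8% of the list against 5.02% of all genes tested. This list was written with earlier results of these data known, so its share describes the list only. The share also includes Stra6, which entered the test through the EVX1-Δfs libraries alone and could be called only as higher. With the replicate block in limma 1 of the 16 was called, while the calls among all genes also dropped, to 76 higher and 146 lower. Without EVX1-Δfs replicate 1 or replicate 3, 0 genes of the list were called, but Stra6 fell below the filter there and was not tested. Among all genes 89 were higher and 138 lower in the former fit and 77 and 142 in the latter. The most highly counted gene of the list, the clathrin adaptor subunit Ap2a2, had a log2 fold change of 0.01, at an adjusted p of 0.965 in limma. The median log2 fold change of the list was 0.01.

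The list of 20 other secreted plasma proteins and lipoprotein assembly genes was nearly silent. In it, 5 genes had 0 reads in all 6 libraries (Alb, Apoa2, Apoh, Fga and Fabp1), 15 genes (these 5 included) stayed below a normalized count of 10 in every library, and 2 passed the filter, Mttp and Apoc1. Of these, 0 were called, with 0 at an unadjusted p under 0.05 in limma, against 5.02% and 23.1% of all genes tested. Their median log2 fold change was 0.17. Apoc1, a small apolipoprotein whose gene neighbours Apoe, was at 66.6 ± 14.2 and 65.9 ± 13.3 normalized counts (SD, n = 3), at an adjusted p of 0.978 in limma. Spink3, a secreted protease inhibitor chosen after its values were seen, was at 0, 0.885 and 2.29 normalized counts in wildtype and 5.60, 9.02 and 4.76 in EVX1-Δfs EBs. Its 3 and 19 reads had an adjusted p of 0.0433 in the limma fit over all genes with any read, and among genes with a read that were not tested, 4.8% had groups that did not overlap in this direction and 2.99% in the other.

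Among regulators of endoderm, Eomes, Gata6 and Gata4 were at 658, 103 and 83.2 normalized counts per kilobase over the 6 libraries, above each of the 10 genes but Apoe. Of 10 endoderm transcription factors, 7 were tested, 2 were called higher and 1 lower. The called share was 42.9% of the tested factors, against 5.02% of all genes tested, and their median log2 fold change was -0.38, against 0.00. The list was written with earlier results of these data known, and the paper names Sox17, Foxa2 and Eomes as changed. The share therefore describes the list only. Sox17 was at 33.5, 59.3 and 49.2 normalized counts in wildtype and 81.2, 116 and 70.5 in EVX1-Δfs EBs, a log2 fold change of 0.91, at an adjusted p of 0.0334 in limma. Foxa2 was at 40.2, 32.7 and 64.1 in wildtype and 102, 115 and 71.5 in EVX1-Δfs EBs, a log2 fold change of 1.09, at an adjusted p of 0.0159 in limma. Both factors act in definitive as well as visceral endoderm. Eomes, a T-box factor of the epiblast, primitive streak and visceral endoderm, fell by 0.50 on the log2 scale, at an adjusted p of 0.0194 in limma. All 3 calls were lost with the replicate block in limma (adjusted p of 0.0564, 0.0667 and 0.0586), which left the fold changes as they were. With the block and GC and length trends removed, Sox17 and Foxa2 were called (0.0486 and 0.0403) and Eomes was not (0.0822), and with the block in DESeq2 Eomes was called (0.0187). The Sox17 call was also lost when 1 of 4 libraries was left out, replicates 1 and 3 of wildtype and replicates 1 and 2 of EVX1-Δfs (0.0524 to 0.134 in limma), and in the fit over all genes with any read (0.0595). The Foxa2 call was lost when EVX1-Δfs replicate 1 or 2 was left out (0.0690 and 0.0721), and that of Eomes when wildtype replicate 3 or EVX1-Δfs replicate 1 or 3 was (0.0552, 0.0660 and 0.0791).

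Gata4, Gata6, Sox7 and Hhex did not pass the test. Gata4 was at 368 ± 41.1 and 283 ± 42.1 normalized counts and Gata6 at 371 ± 45.1 and 288 ± 66.1 (SD, n = 3, wildtype first), at limma adjusted p of 0.112 and 0.146. Sox7 was at 29.7, 78.8 and 26.3 in wildtype and 19.6, 20.3 and 22.9 in EVX1-Δfs EBs, at an adjusted p of 0.122 in limma. Hhex had a log2 fold change of -0.57, at an adjusted p of 0.129 in limma. The point estimates of these 4 genes were below 0, whereas those of Sox17 and Foxa2 were above it.

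Hnf4a, a nuclear receptor that acts on the promoters of many serum protein genes, and the forkhead factor Foxa1 were too low for the test. Hnf4a was at 2.87, 1.77 and 2.29 normalized counts in wildtype and 7.47, 7.89 and 8.58 in EVX1-Δfs EBs, from 7 and 24 reads. Its groups did not overlap, as was the case in this direction for 4.8% of the genes with a read that were not tested. The adjusted p of Hnf4a in the limma fit over all genes with any read was 0.0845. Foxa1 had 13 wildtype and 20 EVX1-Δfs reads and an adjusted p of 0.654 in the same fit.

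**Figure D5:**
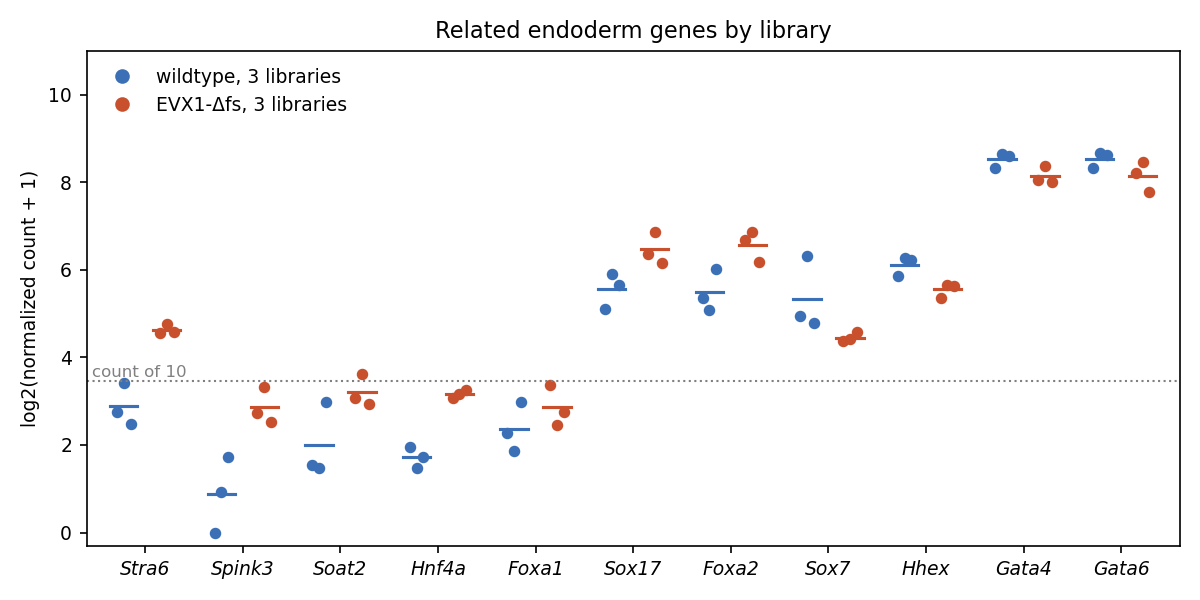
Normalized counts of Stra6, of Spink3 and Soat2 (chosen after their values were seen) and of 8 endoderm transcription factors on a log2(normalized count + 1) axis, with 1 point per library, bars at the means of these log2 values and a dotted line at a count of 10. Stra6, Spink3 and Hnf4a, all at or below 25.9 normalized counts, and Sox17 and Foxa2 are higher in all EVX1-Δfs libraries than in any wildtype library, and Sox7 and Hhex are lower in all of them. Among all genes tested, 12.2% are higher and 14.7% lower in this way. Spink3 and Hnf4a were not tested, and among such genes with a read 4.8% are higher and 2.99% lower.

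Markers of other tissues that EBs could hold were measured in the same libraries. Their lists too were written with earlier results of these data known, so the counts of calls describe the lists only. Of all genes tested, 2.08% were called higher and 2.95% lower. Of 8 anterior visceral endoderm genes, 7 were tested and 1 was called, Cer1, which rose from 33.9 ± 14.3 normalized counts to 377 ± 72.8 (SD, n = 3), at an adjusted p of 2.37e-09 in limma. The most highly counted gene of that list, Lhx1, had a limma adjusted p of 0.393. Of 10 parietal endoderm genes, 9 were tested and Col4a2 was called lower (by -0.49 on the log2 scale, adjusted p of 0.0365, and 0.0638 with the replicate block), while Col4a1, the most highly counted, had a limma adjusted p of 0.111. Of 10 nascent and posterior mesoderm genes, all were tested and 8 were called lower (T, Mixl1, Mesp1, Kdr, Hand1, Tbx6, Wnt3 and Snai1), with log2 fold changes from -1.28 (Hand1) to -0.55 (Wnt3). The median log2 fold changes of these 3 lists were -0.04, -0.11 and -0.87, in that order. The summed normalized count of the mesoderm list ranged from 17914 to 18420.4 in wildtype and from 10517 to 13161 in EVX1-Δfs libraries.

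Of 10 primitive blood and macrophage genes, 3 were tested and 0 were called, against 5.02% of all genes tested. At an unadjusted p under 0.05 in limma there was 1 (Tal1, adjusted p of 0.0947), against 23.1% of all genes tested. Hbb-y and Ptprc had 0 reads. Of 8 epiblast and pluripotency genes, all were tested and 1 was called higher, against 2.08% of all genes tested. This was Fgf5 (by 0.61 on the log2 scale, limma adjusted p of 0.0293, and 0.0624 with the replicate block). Pou5f1, the most highly counted, was at 7544 ± 2179 and 7167 ± 946 normalized counts (SD, n = 3), at an adjusted p of 0.896 in limma. The median log2 fold changes were -0.18 for the blood genes and 0.40 for the epiblast genes tested. Embryonic stem cells and epiblast are known to express Apoe, and the part of these cell types in the levels of the 10 genes was not tested.

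The 5 genes whose deviations from their genotype means followed the average deviation of the 5 tested genes most closely over the 6 libraries were Ccdc85a, Spsb3, Tmem246, Gnai2 and Zfp790, with Pearson's r of 0.999, 0.992, 0.991, 0.990 and 0.990. They were the highest of 10629 genes compared over 6 points that share libraries and depth, and so large a search over so few points gives high values readily. The average was set largely by Cubn, whose deviation in wildtype replicate 2 was -1.64 on the log2 scale, against -0.12 for Apoe.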

How the data were processed

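Per the labels and the methods, the authors selected mRNA, sequenced it on an Ion Proton, aligned the reads to mm9 (TopHat2, then TMAP) and counted them per gene with HTSeq. Their versions and the annotation used are not given in the sources used here. The deposited signal is the authors' read count per gene divided by 1 size factor per library, and undoing this division gave whole reads for 100% of values (tolerance 0.001). The table lists 23353 genes, of which 21945 (94.0%) matched the GENCODE vM1 annotation of NCBIM37.

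limma (3.58.1, R 4.3.3, trended empirical Bayes) was fitted without covariates to log2(normalized count + 1) of the 13136 genes that reached 10 normalized counts in 3 or more libraries, and changes of low genes are understated on this scale. The threshold was 0.05 on p-values adjusted after Benjamini and Hochberg. DESeq2 (1.42.0) and edgeR (4.0.16) were run on the recovered reads, and 18 settings were tried beside the reported one. Scripts were tested on simulated data.

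The authors state that each replicate was set up on a different day with both lines side by side, so the replicate number was taken to pair the libraries. Across 13136 genes, the deviations of a pair from their group means had correlations of 0.111 (replicate 1), 0.00933 (replicate 2) and -0.101 (replicate 3). Whether the counting used strand is stated only as HTSeq's standard settings. Counting intervals and limits cover counting error only.

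The 10 genes, the 8 other lists and the tests were chosen with earlier results of these data known. The 10 genes were all named. Genes of other lists were named when called, when most highly counted in their list, when a direct partner of one of the 10 (Lrp2, Lrpap1, Tfrc, Stra6 and Mttp) or when an endoderm transcription factor. Others are said to be chosen after their values were seen. A few genes of these lists are not reported here.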

Additional observations from a re-analysis of the deposited data

How the results depend on the processing

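Of those of the 10 genes that a setting gave an adjusted p, 0 were called in each of the 18 other settings. Adjusted p ranged from 0.148 to 0.719 for Apoe, 0.343 to 0.973 for Cubn, 0.480 to 0.968 for Dab2, 0.0737 to 0.564 for Rbp4 and 0.818 to 0.998 for Trf. DESeq2 gave no adjusted p for Cubn, Rbp4 and Trf. Apoe, Dab2 and Rbp4 kept their direction in every setting that gave an adjusted p, with log2 fold changes from -0.30 to -0.09, 0.03 to 0.37 and -1.26 to -0.41. The log2 fold change of Cubn was reversed without wildtype replicate 2 (-0.608), without EVX1-Δfs replicate 1 (-0.104) and without EVX1-Δfs replicate 3 (-0.266), and reached 1.01 without EVX1-Δfs replicate 2. That of Trf was 0.0157 in edgeR and 0.0144 with GC and length trends removed, with or without the replicate block, and ranged from -0.187 to 0.169 when 1 library was left out. Lrpap1 ranged from -0.0361 to 0.130 when 1 library was left out.

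With the replicate block in limma, 76 genes were higher and 146 lower, and in DESeq2 77 and 207. With GC and length trends removed, 98 were higher and 180 lower, and 67 and 129 with the block added. Upper-quartile scaling gave 370 higher and 325 lower, against 273 and 387. Leaving out 1 library gave 77 to 332 higher and 138 to 355 lower. The other endocytic genes called numbered 1 with the block in limma and in DESeq2 and with trends removed (with or without the block), 5 with upper-quartile scaling, and 0 to 3 when 1 library was left out. Stra6 was not tested where an EVX1-Δfs library was left out. The endoderm transcription factors called numbered 0 with the block in limma, 1 with it in DESeq2 (which gave Sox17 and Foxa2 no adjusted p), 2 with the block and trends removed, 4 in edgeR and voom, and 0 to 3 when 1 library was left out. Anterior visceral endoderm genes called numbered 1 to 2 and blood genes 0 to 1 when 1 library was left out. Parietal endoderm genes called numbered 0 with the limma block and with trends removed (with or without the block), and 0 to 2 when 1 library was left out. Epiblast genes called numbered 4 with DESeq2, edgeR, voom or upper-quartile scaling, 2 with a pseudocount of 16, 0 with the limma block (trends removed or not), and 0 to 5 when 1 library was left out. Over all genes with any read, 1 secretory gene (Spink3) was called. Beyond the calls given in the text as lost with the limma block, it changed that of T (adjusted p of 0.0566) and no other call of a gene named here. For these shifts the cause was not tested. The settings for genes outside the 10 and the replicate term were added after seeing the data.

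Depth limited 5 of the 10 genes: at 3 to 56 reads over all libraries, a difference below the counting intervals given was not detectable. P-values measure the spread between 3 differentiations of 1 clone and its parental line.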

Other observations

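The nuclear ribosomal RNA gene Rn45s took between 1.87% and 4.95% of the reads of a library. Soat2, a cholesterol acyltransferase of lipoprotein assembly chosen after its values were seen, had 10 wildtype and 25 EVX1-Δfs reads, groups that overlapped and an adjusted p of 0.188 in the limma fit over all genes with any read. Myo6, a motor of apical endocytosis also chosen after its values were seen, was at 332 ± 33.6 and 425 ± 45.9 normalized counts in wildtype and EVX1-Δfs EBs (SD, n = 3). Its groups did not overlap, as for 12.2% of genes tested in this direction, and the limma adjusted p was 0.111.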
